A study of Mus musculus with 12 samples.

Results

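The genes of the constitutive proteasome and of its regulators were followed in an RNA sequencing experiment on mouse dendritic cells. Members were the protein-coding genes whose symbol is Psma, Psmb, Psmc, Psmd, Psme, Psmf or Psmg and a number, without the inducible subunits Psmb8, Psmb9 and Psmb10. Of the 55401 genes in the count table, 45 matched, and 43 of these passed the expression filter, a log2 CPM (CPM is the count relative to the TMM-scaled library total) above 0 in at least 2 of the 12 libraries. The filter kept 14079 genes in all. Psma8 had 0 counts in every library and Psmb11 had 1 count in all libraries together. These are the spermatogenesis and thymus forms of core subunits. The 43 genes fell into 7 subunits of the alpha ring, 7 of the beta ring, 6 ATPases and 11 non-ATPases of the cap, the activator subunits Psme1 and Psme2, 3 other activators and inhibitors, and 7 assembly chaperones.

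The proteasome degrades proteins tagged with ubiquitin and supplies most peptides presented on MHC class I. Its core is a barrel of stacked rings: the outer alpha rings gate the entrance, and the inner beta rings carry the catalytic sites. The regulatory cap has a base, whose ATPases unfold substrates and open the gate, and a lid that removes ubiquitin. Psme1 and Psme2 encode PA28 alpha and beta, which form an alternative cap that opens the core without ATP. In cells exposed to interferon, Psmb8, Psmb9 and Psmb10 replace the catalytic subunits Psmb5, Psmb6 and Psmb7 in newly built cores, and PA28 is induced as well.

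The cells were Sp37A3, an immature dendritic cell line from the spleen of C57BL/6 mice, grown with GM-CSF and M-CSF. The CtrV line carried an empty lentiviral CRISPR vector, and the EKO line was a pool of single-cell clones edited with a guide against Siglece, the gene of the inhibitory receptor Siglec-E. Cells of each line were pulsed with ovalbumin (OVA) or left unpulsed, and cells of all 4 groups were stimulated with LPS and processed for 24 hours. Each group had 3 libraries, with totals between 27116201 and 39698572 counts. It is not described whether replicates came from separate cultures, so p-values measure the spread between these libraries. No group without LPS was analysed here.

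The level of Siglece mRNA did not check the labels, since it was higher, not lower, in EKO-labelled libraries. It ranged from 150.2 to 163 CPM in CtrV libraries and from 166 to 235 CPM in those labelled EKO. Its log2 fold changes were 0.31 with OVA and 0.41 without (adjusted p = 0.0106 and 0.00261, by the test described with the first comparison). With single libraries left out, the former reached an adjusted p of 0.073. The paper reports that the pooled clones had little or no Siglec-E. All 10 markers of dendritic and myeloid cells were detected, and Cd3e, Col1a1, Col3a1 and Pdgfra were at or near 0. The summed level of the 10 markers ranged from 22260 to 24320 CPM in CtrV and from 21760 to 24360 CPM in EKO-labelled libraries, of which Cd74 alone gave 64.1% to 75.1%. Without Cd74 it ranged from 5999 to 6206 CPM in CtrV and from 7665 to 7978 CPM in EKO-labelled libraries. Of the 10 markers 5 were called between the lines with OVA and 6 without, beside 47% and 46.4% of all genes: Irf8 (1.35 with OVA), Csf1r (0.55), H2-Ab1 (0.52) and Ptprc (0.32) were higher in EKO-labelled cells in both states, Itgax (-0.27) was lower in both, and Itgam was higher without OVA (0.29), all as log2 fold changes by the test described with the first comparison. The part of these markers in the differences of the proteasome genes was not tested. Summed T cell markers reached at most 3.57 CPM and summed B cell markers at most 1.07 CPM. Epcam gave nearly all of the 20.8 to 33 CPM of the epithelial list. In RNA from whole cultures, fewer cells of a type and less RNA per cell cannot be told apart.

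Replicate 3 of the unpulsed CtrV cells was high in these genes. It was the highest of its group for 40 of the 43 members, including all 14 core subunits, against 45.1% of all genes tested. Its level was 1.16 times the mean of the other replicates at the median member, 1.18 times at the median core subunit, and 1.02 times at the median of all genes. Replicate 3 was also the highest of its group for 29 members in OVA-pulsed CtrV cells (67.4%, against 38.3% of all genes). The same held for 25 members in unpulsed EKO-labelled cells (58.1%, against 32%) and for 17 in OVA-pulsed ones (39.5%, against 28.4%). Line differences without OVA are also given without unpulsed CtrV replicate 3, a choice made from the members' own values. Leaving out this library lowers the CtrV mean of those 40 members, so a shift of most differences towards EKO-labelled cells was set in advance. The values, calls and adjusted p without it show how far the results rest on this library and are no further support for a difference.

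**Figure D1:**
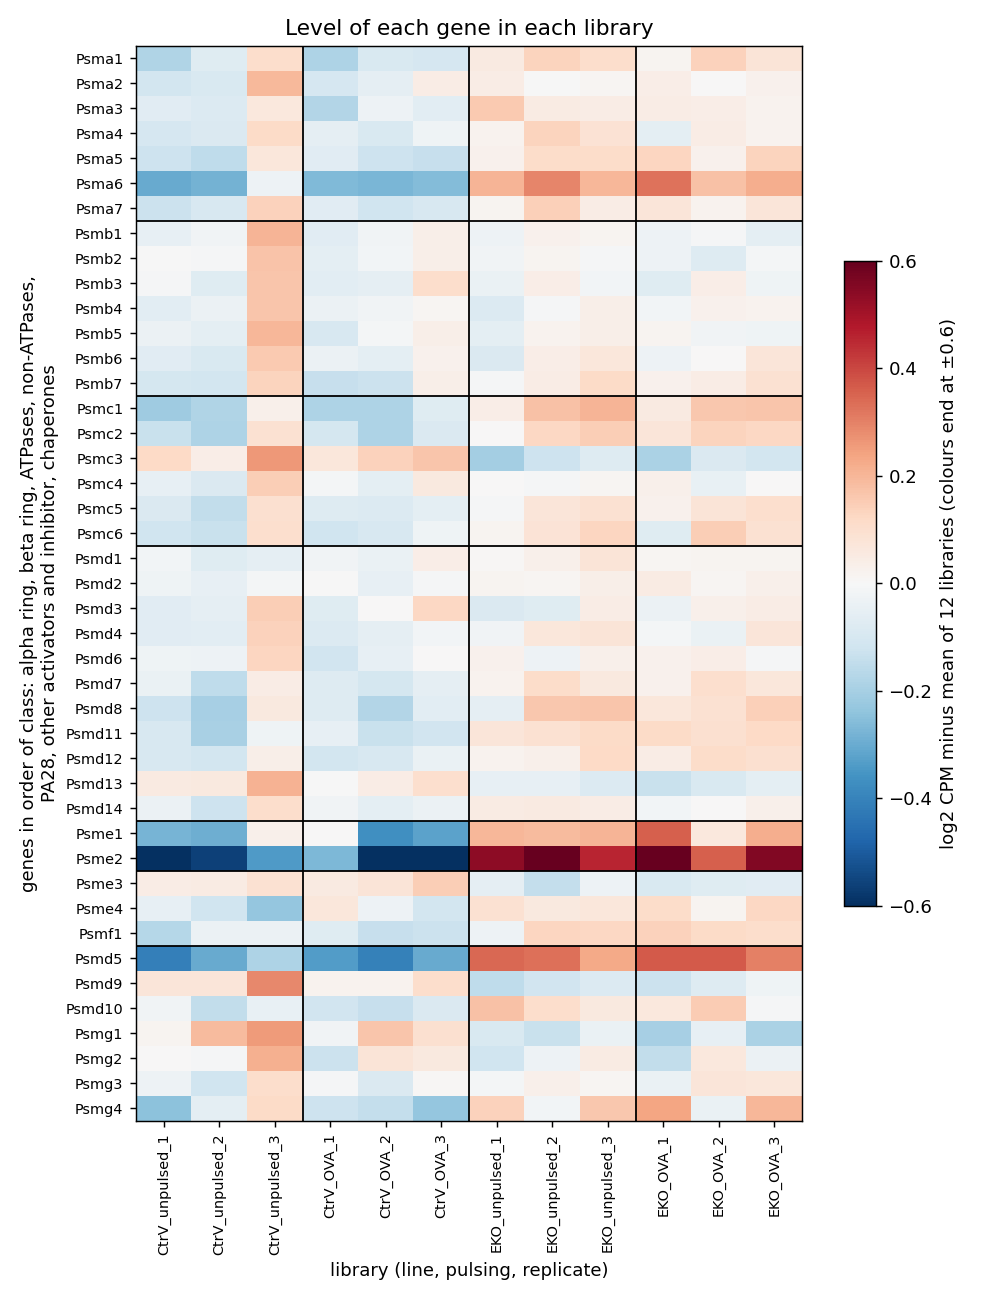
Level of each of the 43 genes (rows, in order of class) in each of the 12 libraries (columns), as log2 CPM minus the gene's mean over the libraries. Psme2, Psmd5 and Psma6 were lower in CtrV and higher in EKO-labelled libraries, Psmc3 showed the opposite, and unpulsed CtrV replicate 3 was the highest library of its group for 40 genes.

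Several proteasome genes have near-identical copies elsewhere in the genome. For 9 members, an annotated gene or pseudogene at another locus matched the coding sequence at 95% identity or more over at least 200 bases. Reads that fitted several places equally well were reported at a single one, so reads could be split between the places. The copies held 79.1% of the joint reads for Psma3, 75.4% for Psme2, 72.9% for Psma5 and 58.1% for Psmb3. For Psma4, Psmd11, Psmb5, Psmd2 and Psmc1 the share lay between 4.25% and 25.8%. Between the means of the lines these shares differed little, for Psme2 75.8% in CtrV and 75.1% in EKO-labelled libraries.

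**Figure D2:**
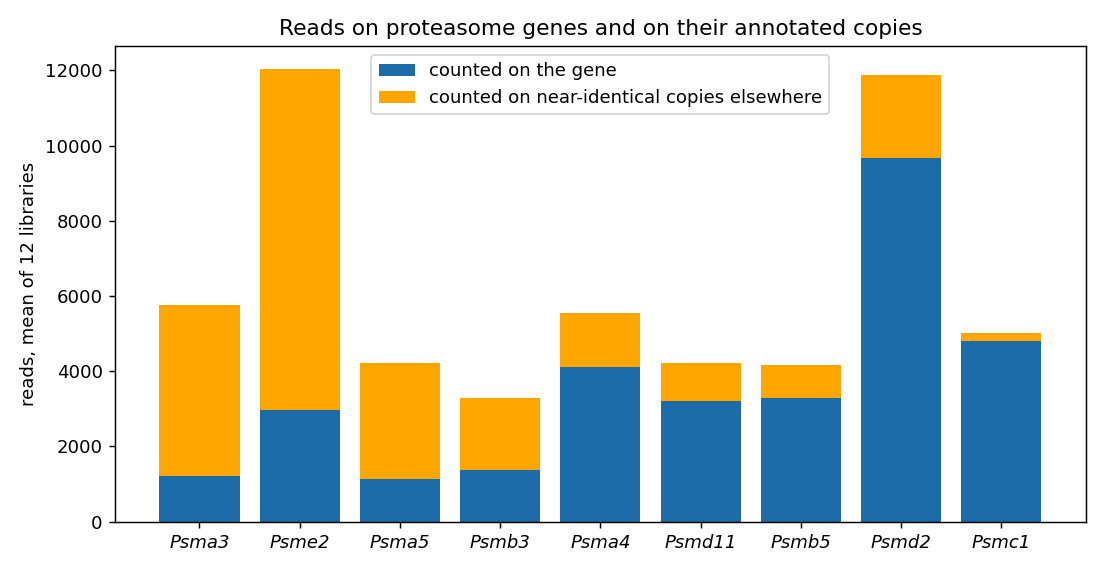
Reads counted on 9 proteasome genes (lower part of each bar) and on their near-identical copies at other loci (upper part), as means of the 12 libraries. For Psma3, Psme2, Psma5 and Psmb3 more reads were counted on the copies than on the gene itself.

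Psme2 and its copy show why reads are hard to assign. In GRCm38, Psme2 lies on chr14:55587441-55591113 (minus strand) and Psme2b, a protein-coding gene in the annotation, on chr11:48945354-48946190 (minus strand). Over the 717 coding bases of Psme2 the transcripts differed at 5, and the longest run without a difference was 311 bases. The 90 coding bases from base 454 to base 543 hold 3 of these differences, shown in capitals, in the sequences of the GENCODE transcripts.
Psme2: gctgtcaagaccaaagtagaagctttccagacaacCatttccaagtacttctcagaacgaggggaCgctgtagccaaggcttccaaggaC
Psme2b: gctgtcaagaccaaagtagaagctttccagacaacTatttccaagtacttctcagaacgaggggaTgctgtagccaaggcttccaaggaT
A read that covers none of the differing bases fits both genes. Psme2b itself had 188 ± 30.2 CPM in OVA-pulsed CtrV cells and 385 ± 39.6 CPM in OVA-pulsed EKO-labelled cells (mean ± SD, n = 3).

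With reads of the copies added, levels per length became more alike among the core subunits. Levels were taken as CPM per kilobase of the whole transcript that holds each gene's longest coding sequence, in OVA-pulsed CtrV cells. The 7 beta subunits ranged from 57.0 to 176 without the copies, a 3.09-fold range, and from 112 to 176 with them, a 1.57-fold range. Psmb3, the lowest beta subunit without copies, moved from 57.0 to 138. The 7 alpha subunits ranged from 12.6 (Psma3) to 190.04 (Psma1), a 15-fold range, which narrowed to 4.41-fold with copies. The 17 cap genes ranged from 50.8 (Psmd12) to 131 (Psmc3), a 2.58-fold range with or without copies. Psme2 moved from 62.9 to 258, from below to above the 124 of Psme1. Over all 43 members the range widened with copies, from 19.9-fold to 27-fold. The assembly chaperones, which are not part of the finished particle, were lower, from 9.56 (Psmd5) to 24.9 (Psmg2). Transcript choice also enters these values, since reads may come from transcripts shorter or longer than the one used. That of Psma3 has 2846 bases, of which 765 are coding, and that of Psma1 has 1201, of which 789 are coding.

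The first comparison set EKO-labelled against CtrV cells, the question of the sequencing experiment, in OVA-pulsed cells. Psme2, Psmd5 and Psma6 had the largest differences, all higher in EKO-labelled cells, and the beta ring had none that passed the test. At a Benjamini-Hochberg adjusted p under 0.05 in edgeR's quasi-likelihood test, 14 members were higher and 4 were lower, 18 of 43 or 41.9%. Over all genes tested 47% were called, 25.1% higher and 21.9% lower. The median absolute log2 fold change was 0.14 over the members and 0.21 over all genes tested, and 3 of the 43 members exceeded 0.5, against 21.8% of all genes. The groups did not overlap for 25 members, with EKO-labelled libraries above in 20 and below in 5. Over all genes the groups were separate in that way for 27% and 25.9%. Without replicate 2 of OVA-pulsed CtrV cells 10 members were called (36.8% of all genes), and without both libraries of EKO replicate 1 the number was 13 (42.6% of all genes).

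In unpulsed cells 11 members were higher and 5 lower in the EKO-labelled line, 16 of 43 or 37.2%, where 46.4% of all genes were called (24.5% higher, 21.9% lower). The groups were separate, EKO-labelled above, for 11 members (24.1% of all genes) and below for 5 (22.9%). Called in both states in the same direction were 14 members, 77.8% of those called with OVA and 87.5% of those called without. Over all genes 5546 were called in that way (39.4% of those tested), 83.8% of the genes called with OVA and 84.8% of those called without, so the shares of the members lay near those of all genes. Of these, Psma6, Psmc1, Psmc2, Psmd8, Psmd10, Psmd11, Psmd5, Psme1, Psme2 and Psmf1 were higher, and Psmc3, Psmd13, Psme3 and Psmg1 were lower. Without replicate 3 of unpulsed CtrV cells 21 members were called, 17 higher and 4 lower, or 48.8%, against 42.1% of all genes (22.3% higher, 19.7% lower). With upper-quartile scaling 7 were higher and 5 lower, against 48.1% of all genes called. The number was 9 without replicate 2 (38.3% of all genes) and 10 without replicate 3 of unpulsed EKO-labelled cells (38.5%), and 8 when only the 6 unpulsed libraries were fitted (34.1%). Leaving out that replicate 2 lost the calls of Psmc2, Psmd8, Psmd10, Psme1, Psme3, Psmf1 and Psmg1, and leaving out that replicate 3 lost those of Psmc2, Psmd8, Psmd13, Psme3, Psme4 and Psmf1.

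**Figure D3:**
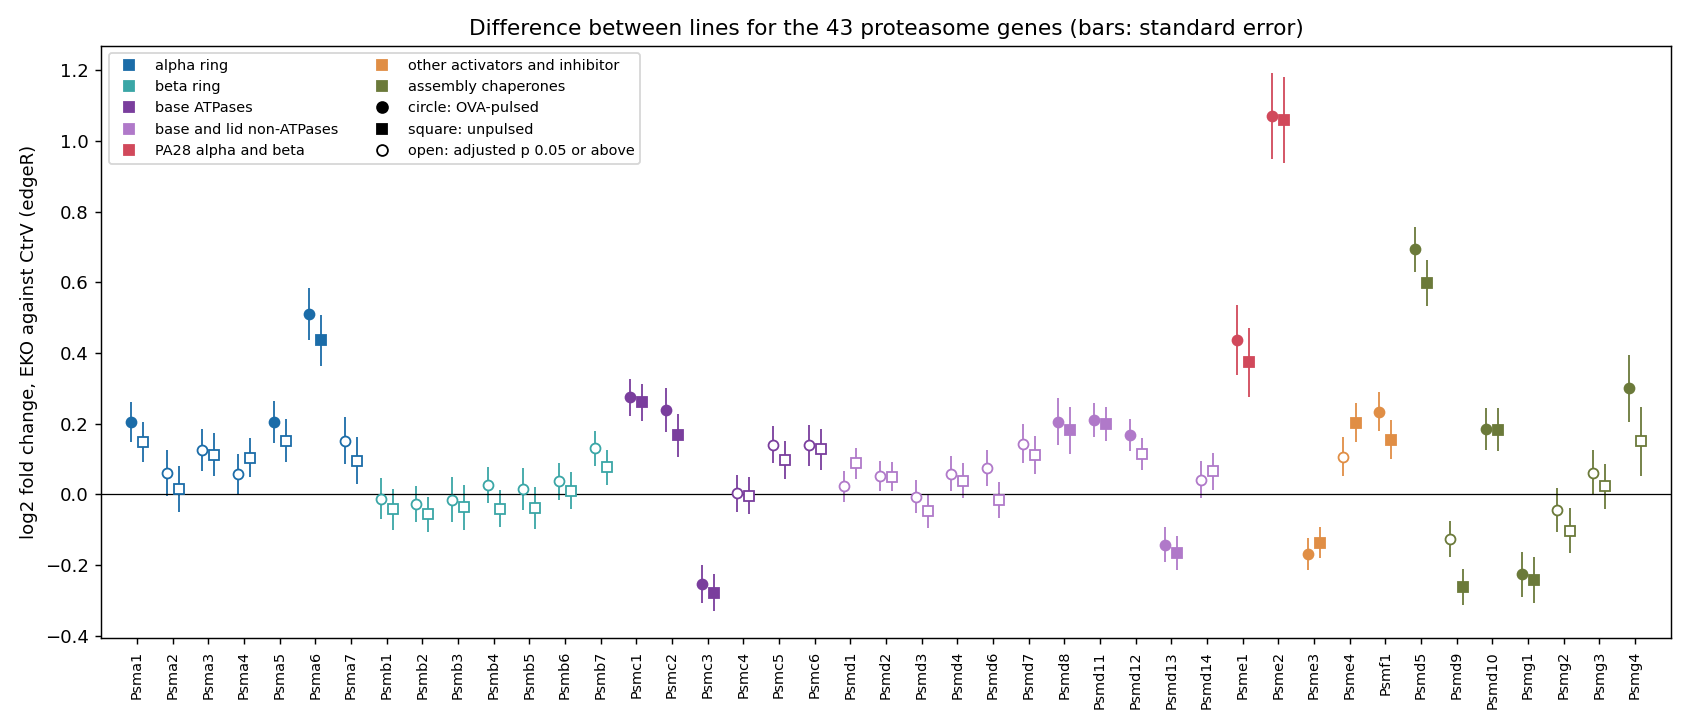
Log2 fold change of EKO-labelled against CtrV cells for each of the 43 genes, by class, with OVA (circles) and without (squares). Bars are standard errors and filled points passed an adjusted p of 0.05 (edgeR). Psme2 lies above 1 in both states, Psmd5, Psma6 and Psme1 lie between 0.37 and 0.69, and all 7 beta subunits have open points between -0.06 and 0.13.

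Among the alpha-ring subunits, 3 of 7 were called higher with OVA (Psma6, Psma5 and Psma1), 1 of 7 without (Psma6), and none lower, beside 47% and 46.4% of all genes called. Without unpulsed CtrV replicate 3, 5 of 7 were called higher (42.1% of all genes called), with Psma1, Psma4, Psma5 and Psma7 added. The ring's median log2 fold change was 0.15 with OVA, 0.11 without OVA and 0.18 without OVA and that library, beside 0.0006, 0.0001 and 0.005 over all genes. Psma6, on chr12:55384222-55418454 (plus strand), had 197, 196 and 198 CPM in the OVA-pulsed CtrV libraries and 298, 268 and 277 CPM in the EKO-labelled ones. Without OVA it had 193, 195 and 233 CPM in CtrV and 274, 291 and 273 CPM in EKO-labelled libraries. Every EKO-labelled library was above every CtrV library, including the high unpulsed replicate 3. Its log2 fold change was 0.51 ± 0.073 (SE) with OVA, a 1.42-fold higher level (adjusted p = 0.000228), and 0.44 ± 0.073 without (adjusted p = 0.000693). Leaving out that replicate 3, it was 0.53 in unpulsed cells (adjusted p = 0.000129).

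Psma1 had 219, 234 and 232 CPM in OVA-pulsed CtrV and 252, 274 and 263 CPM in OVA-pulsed EKO-labelled libraries. Psma5, of which most reads lay on copies, had 34.5, 33.3 and 33.0 CPM and 39.6, 36.8 and 39.8 CPM. In neither gene did the OVA-pulsed groups overlap, while the unpulsed groups overlapped in both. The log2 fold changes were 0.20 ± 0.057 for Psma1 (adjusted p = 0.0127) and 0.20 ± 0.060 for Psma5 (adjusted p = 0.017). In unpulsed cells they were 0.15 ± 0.057 and 0.15 ± 0.061, with adjusted p = 0.0549 and 0.0621, and 0.22 and 0.22 without CtrV replicate 3 (adjusted p = 0.00323 and 0.0149). Both calls with OVA were lost on leaving out CtrV replicate 2 or 3 or EKO replicate 1, and also on leaving out EKO replicate 2 for Psma1 and replicate 3 for Psma5, with adjusted p up to 0.0629 and 0.0946. Psma2, Psma3, Psma4 and Psma7 had log2 fold changes between 0.058 and 0.15 with OVA and did not pass the test.

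In the beta ring, 0 of 7 subunits were called in either state by edgeR's quasi-likelihood test, beside 47% and 46.4% of all genes. At an unadjusted p under 0.05, passed by 54% of all genes with OVA and 53.5% without, there was 1 beta subunit, Psmb7 with OVA, and limma voom and the bias-adjusted edgeR fit called it (adjusted p = 0.0478 and 0.0479), while DESeq2 called 0. Psmb5, which carries the chymotrypsin-like site, had 97.4, 103 and 107 CPM in OVA-pulsed CtrV and 105, 103 and 102 CPM in OVA-pulsed EKO-labelled libraries. In unpulsed cells it had 102, 100.2 and 119.8 CPM and 100.1, 106 and 107 CPM. The groups overlapped in both states, and the log2 fold changes were 0.015 ± 0.060 and -0.038 ± 0.060, the latter 0.033 without CtrV replicate 3.

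Psmb6, the caspase-like subunit, had 136, 134 and 142 CPM in OVA-pulsed CtrV and 137, 139.7 and 147 CPM in OVA-pulsed EKO-labelled libraries. Without OVA the values were 133, 131 and 155 CPM and 131, 144 and 146 CPM. These groups also overlapped, with log2 fold changes of 0.037 ± 0.053 and 0.0099 ± 0.053, the latter 0.061 without CtrV replicate 3. Psmb7, the trypsin-like subunit, had 125, 125 and 140.4 CPM in OVA-pulsed CtrV and 139.6, 141 and 146 CPM in OVA-pulsed EKO-labelled libraries. Without OVA it had 127, 127 and 150.4 CPM and 136, 141 and 148 CPM. CtrV replicate 3 was the highest CtrV library for this gene in both states, and the log2 fold changes were 0.13 ± 0.050 (adjusted p = 0.0526) and 0.076 ± 0.050 (adjusted p = 0.239, and 0.12 with adjusted p = 0.0647 without that library). Without it the 7 subunits lay between -0.010 and 0.12 in unpulsed cells, and 0 of 7 were called (42.1% of all genes). Psmb1, Psmb2, Psmb3 and Psmb4 had log2 fold changes between -0.028 and 0.026 with OVA and between -0.057 and -0.037 without. Standard errors of the 7 subunits with OVA lay between 0.050 and 0.063, so a difference about as large as that of Psmb7 could have been missed.

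The balance between inducible and constitutive catalytic subunits was compared as the ratio of their counts within a library, which needs no scaling between libraries. For the chymotrypsin-like site, the Psmb8 to Psmb5 ratio was 2.01, 1.80 and 1.81 in OVA-pulsed CtrV and 3.61, 2.68 and 3.19 in OVA-pulsed EKO-labelled libraries. Without OVA it was 1.76, 1.94 and 1.85 in CtrV and 3.56, 2.91 and 2.93 in EKO-labelled libraries. No CtrV library reached the lowest EKO-labelled one. The mean log2 ratio was 0.75 higher in EKO-labelled cells (two-sided exact permutation of line labels within pulsing state, p = 0.005, the smallest that the 400 arrangements could give, and 0.0075 after Benjamini-Hochberg adjustment over the 3 pairs). Psmb5 entered the ratio without a called difference, and Psmb8 had a log2 fold change of 0.76 ± 0.10 with OVA.

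For the caspase-like site, the Psmb9 to Psmb6 ratio was 0.469, 0.410 and 0.402 in OVA-pulsed CtrV and 1.00, 0.755 and 0.849 in OVA-pulsed EKO-labelled libraries. Without OVA it was 0.375, 0.416 and 0.442 and 0.907, 0.852 and 0.805. Again the lines were separate, and the mean log2 ratio was 1.04 higher in EKO-labelled cells (exact permutation p = 0.005, adjusted 0.0075). The trypsin-like site went the other way. The Psmb10 to Psmb7 ratio was 0.958, 0.789 and 0.723 in OVA-pulsed CtrV and 0.738, 0.648 and 0.717 in OVA-pulsed EKO-labelled libraries, and 0.783, 0.807 and 0.827 and 0.636, 0.761 and 0.744 without OVA. The mean log2 ratio was lower by a difference of -0.20 (exact permutation p = 0.01, adjusted 0.01), the lines overlapped with OVA, and Psmb10 itself was not called (-0.10 ± 0.11 with OVA, adjusted p = 0.467). Without unpulsed CtrV replicate 3 the differences of the 3 ratios were 0.75, 1.07 and -0.19 (adjusted 0.0075, 0.0075 and 0.035). The permutation takes the libraries of both pulsing states as independent, but deviations of same-numbered OVA-pulsed and unpulsed libraries correlated across genes at 0.71, 0.36 and 0.42 in EKO-labelled cells and at 0.089, 0.18 and 0.38 in CtrV cells. With same-numbered libraries averaged, the 3 replicate numbers gave an exact sign-flip p of 0.25 for each ratio, the smallest possible. Within one pulsing state 3 libraries against 3 cannot give a p below 0.1, and the ratios there differed by 0.74, 1.02 and -0.22 with OVA and by 0.76, 1.06 and -0.18 without. A ratio of counts between genes of different length ranks libraries, not the abundance of one gene over the other.

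**Figure D4:**
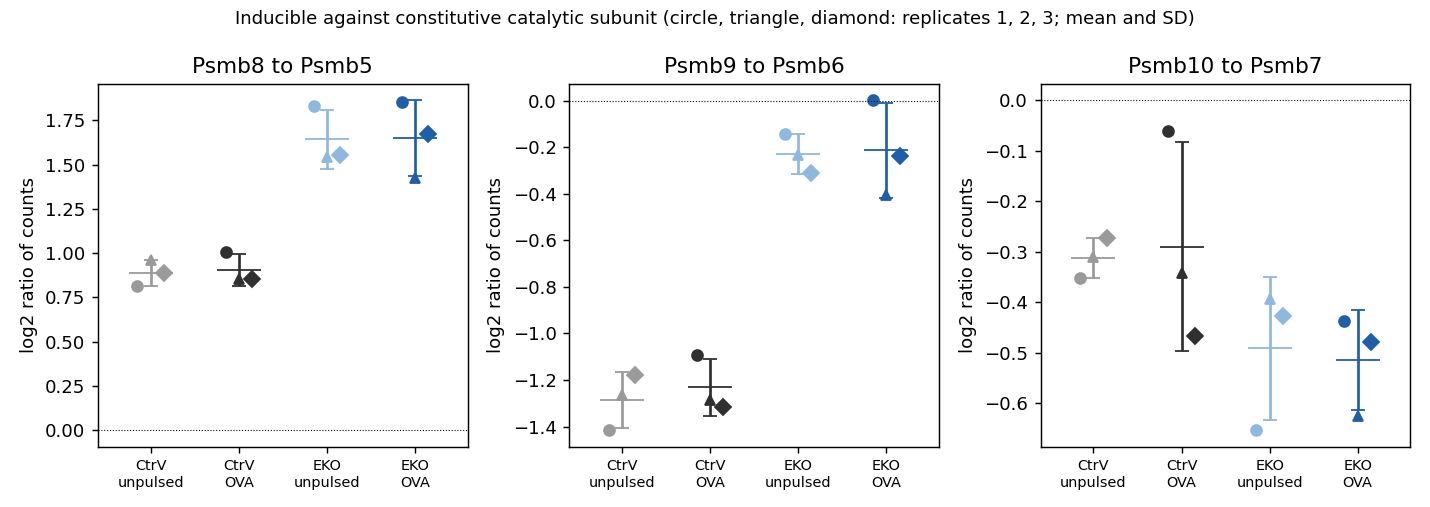
Log2 ratio of counts of each inducible subunit to the constitutive subunit it can replace, for each library of the 4 groups (line and bar: mean and SD of 3 libraries; the vertical axes differ and do not all start at 0). EKO-labelled libraries lie above CtrV for Psmb8 to Psmb5 and Psmb9 to Psmb6, and their mean is lower for Psmb10 to Psmb7.

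In the cap, 5 of 17 genes were called higher and 2 lower with OVA, and 4 higher and 2 lower without, or 41.2% and 35.3% beside 47% and 46.4% of all genes. Without unpulsed CtrV replicate 3 the unpulsed counts were 7 and 1, or 47.1%, against 42.1% of all genes. The median log2 fold change was 0.074 with OVA, 0.088 without OVA and 0.12 without OVA and that library, and the range with OVA was from -0.25 to 0.27. Psmc1, an ATPase whose tail docks into the alpha ring and helps to open the gate, had 134, 133 and 145 CPM in OVA-pulsed CtrV and 158, 169.8 and 170.4 CPM in OVA-pulsed EKO-labelled libraries. Without OVA it had 131, 134 and 155 CPM and 156, 172 and 175 CPM. The lines were separate in both states, and the log2 fold changes were 0.27 ± 0.052 (adjusted p = 0.00143) and 0.26 ± 0.052 (adjusted p = 0.00211). The latter was 0.31 without CtrV replicate 3 (adjusted p = 0.00114).

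Psmc3, another gate-docking ATPase of the same ring, was lower. It had 229.5, 241 and 246 CPM in OVA-pulsed CtrV and 192, 206 and 203 CPM in OVA-pulsed EKO-labelled libraries, and 238, 225 and 263 CPM and 190.3, 201 and 208 CPM without OVA. All EKO-labelled libraries were below all CtrV libraries, with log2 fold changes of -0.25 ± 0.053 (adjusted p = 0.00275) and -0.28 ± 0.053 (adjusted p = 0.00165), the latter -0.24 without CtrV replicate 3 (adjusted p = 0.00707). On the opposite strand 8.25% of its exon bases, 10.1% of those of Psmd13 and 11.8% of those of Psmb7 lie in exons of another gene, and the strand setting of the counting is not given in the sources used here. Psmc2 had 141, 134 and 143 CPM in OVA-pulsed CtrV and 160.1, 167 and 166 CPM in OVA-pulsed EKO-labelled libraries, with no overlap and a log2 fold change of 0.24 ± 0.061 (adjusted p = 0.00849). Its call was lost without replicate 2 of either line (adjusted p up to 0.060). Without OVA the groups overlapped, and Psmc2 was at 0.17 ± 0.061 (adjusted p = 0.0452), or at 0.23 without CtrV replicate 3 (adjusted p = 0.00985). Psmc4, Psmc5 and Psmc6 were not called, with values of 0.0025, 0.14 and 0.14 with OVA. Psmc5 just missed the limit (adjusted p = 0.0518, and 0.0424 to 0.0479 in the 4 alternatives that called it), with OVA-pulsed groups that did not overlap. Those of Psmc6 overlapped (adjusted p = 0.072). Without OVA Psmc5 and Psmc6 were at 0.098 and 0.13 (adjusted p = 0.161 and 0.0958), and at 0.16 and 0.18 without CtrV replicate 3 (adjusted p = 0.0272 and 0.0316).

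Of the 11 non-ATPase genes of the base and lid, Psmd11, Psmd8 and Psmd12 were called higher and Psmd13 lower with OVA. Psmd11, a lid subunit that braces the cap against the core, had 98.3, 92.8 and 93.8 CPM in OVA-pulsed CtrV and 110.2, 109 and 111 CPM in OVA-pulsed EKO-labelled libraries. Psmd8, which completes the lid during its assembly, had 202, 189 and 204 CPM and 224, 227 and 236 CPM. Psmd12, another lid scaffold subunit, had 94.8, 95.9 and 99.6 CPM and 106, 111 and 109 CPM. The OVA-pulsed groups did not overlap for any of these genes, while the unpulsed groups overlapped for Psmd8 and Psmd12. The log2 fold changes with OVA were 0.21 ± 0.048 (adjusted p = 0.00445), 0.21 ± 0.066 (adjusted p = 0.0255) and 0.17 ± 0.045 (adjusted p = 0.0104).

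Without OVA, Psmd11 and Psmd8 were called again (0.20 and 0.18), and Psmd12 was at 0.11 ± 0.045 (adjusted p = 0.0575). Without CtrV replicate 3 the 3 genes were at 0.24, 0.23 and 0.14 (adjusted p = 0.00346, 0.029 and 0.0311). Psmd13, a lid scaffold subunit, was at -0.14 ± 0.049 with OVA and -0.17 ± 0.049 without (adjusted p = 0.0341 and 0.0174, the latter 0.0568 without CtrV replicate 3). Its call with OVA was lost on leaving out any library of the comparison (adjusted p up to 0.106), that of Psmd8 without CtrV replicate 2 or 3 or EKO replicate 1 or 2 (up to 0.141), and that of Psmd12 without replicate 2 of either line (up to 0.0667). Psmd7, a lid subunit that pairs with Psmd14, was at 0.14 ± 0.055 with OVA, as large as the difference of Psmd13, with groups that did not overlap, and just missed the limit (adjusted p = 0.053, and 0.0473 to 0.0495 in the 4 alternatives that called it). Without OVA it was at 0.11 with groups that overlapped, and at 0.15 without CtrV replicate 3 (adjusted p = 0.0504). Psmd3 and Psmd6, lid subunits, were at -0.0065 and 0.074 with OVA. The ubiquitin receptor Psmd4 was at 0.058, the lid deubiquitinase Psmd14 at 0.041, and the large scaffold subunits Psmd1 and Psmd2 at 0.022 and 0.051 with OVA, none of them called.

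Both PA28 genes were higher in EKO-labelled cells in both states, and Psme2 had the largest difference of the 43 members. Psme1 lies on chr14:55578123-55581529 (plus strand), 5911 bases from Psme2, which is on the opposite strand. Psme1 had 161, 125 and 129 CPM in OVA-pulsed CtrV and 206, 168 and 187 CPM in OVA-pulsed EKO-labelled libraries. In unpulsed cells it had 132, 131 and 164 CPM and 185, 183 and 185 CPM. The lines did not overlap, but replicate 1 was the highest library of both lines with OVA, and CtrV replicate 1 came close to the lowest EKO-labelled one. The log2 fold changes were 0.44 ± 0.10 (adjusted p = 0.00413) and 0.37 ± 0.10 (adjusted p = 0.0102, and 0.0552 without replicate 2 of unpulsed EKO-labelled cells). The latter was 0.50 without unpulsed CtrV replicate 3 (adjusted p = 0.00216).

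Psme2 had 72.2, 54.7 and 54.6 CPM in OVA-pulsed CtrV and 142, 112 and 128 CPM in OVA-pulsed EKO-labelled libraries. In unpulsed cells it had 53.6, 59.0 and 68.9 CPM and 126, 132 and 119.7 CPM. The highest CtrV library stayed well below the lowest EKO-labelled one. Its log2 fold changes were 1.07 ± 0.12 with OVA, a 2.10-fold higher level (adjusted p = 4.44e-05), and 1.06 ± 0.12 without (adjusted p = 5.3e-05), or 1.19 without unpulsed CtrV replicate 3 (adjusted p = 9.47e-05). With the reads of Psme2b added they were 1.04 ± 0.12 and 1.00 ± 0.12 (adjusted p = 3.58e-05 and 5.02e-05). The standard deviation of log2 CPM within groups was 0.16 at the median of both PA28 genes, against 0.074 over all members.

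**Figure D5:**
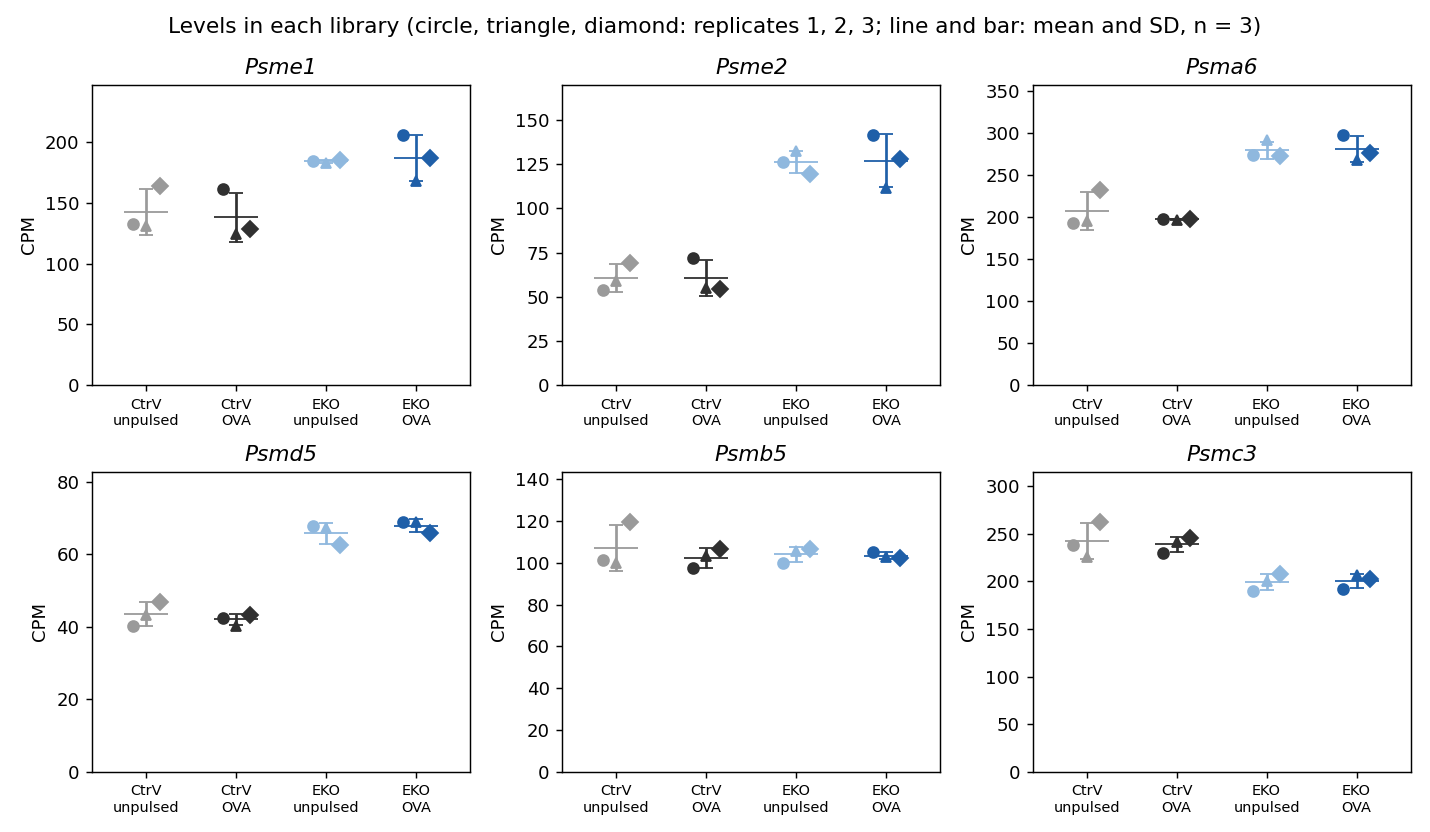
Level in CPM of 6 genes in each of the 12 libraries, by group (line and bar: mean and SD of 3 libraries). Psme1, Psme2, Psma6 and Psmd5 were higher and Psmc3 was lower in every EKO-labelled library than in any CtrV library, and Psmb5 overlapped between the lines.

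The other activators and the inhibitor differed less and in both directions. Psme3, which encodes the nuclear activator PA28 gamma, had 155, 157 and 165 CPM in OVA-pulsed CtrV and 139.9, 142 and 142 CPM in OVA-pulsed EKO-labelled libraries. The groups were separate, with EKO-labelled cells lower at -0.17 ± 0.044 (adjusted p = 0.00939), and at -0.14 ± 0.044 without OVA (adjusted p = 0.0275). Psmf1, the inhibitor PI31, had 52.1, 49.8 and 50.2 CPM and 60.3, 59.4 and 59.0 CPM in OVA-pulsed libraries and a log2 fold change of 0.23 ± 0.056 (adjusted p = 0.00573). Without OVA it was at 0.15 ± 0.056 (adjusted p = 0.0438). Psme4, the activator PA200, was at 0.11 ± 0.054 with OVA (adjusted p = 0.129) and was called without OVA at 0.20 ± 0.054 (adjusted p = 0.0108). The difference between pulsing states in this effect was not called. In unpulsed cells without CtrV replicate 3, Psme3, Psmf1 and Psme4 were at -0.14, 0.17 and 0.16 (adjusted p = 0.0411, 0.0538 and 0.0413). The Psme3 call was lost without EKO replicate 3 with OVA (adjusted p = 0.0508), and that of Psme4 without replicate 3 of unpulsed EKO-labelled cells (0.0523) and with only the unpulsed libraries fitted (0.077).

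Of the 7 assembly chaperones, 3 were called higher and 1 lower with OVA, and 2 higher and 2 lower without OVA, with or without unpulsed CtrV replicate 3. Over all genes 25.1% were higher and 21.9% lower with OVA, and 24.5% and 21.9% without, or 22.3% and 19.7% without OVA and that library. Psmd5, a chaperone that holds base ATPases during assembly and is absent from the finished cap, had 42.3, 40.4 and 43.4 CPM in OVA-pulsed CtrV and 69.0, 68.9 and 65.9 CPM in OVA-pulsed EKO-labelled libraries. In unpulsed cells it had 40.2, 43.3 and 46.9 CPM and 67.8, 67.2 and 62.5 CPM. The lines were far apart relative to the spread, with log2 fold changes of 0.69 ± 0.064 (adjusted p = 1.01e-05) and 0.60 ± 0.065 (adjusted p = 3.28e-05), the latter 0.67 without CtrV replicate 3 (adjusted p = 4.33e-05). The gene lies on chr2:34849734-34874968 (minus strand). Psmd10, the base chaperone gankyrin, was called at 0.18 in both states, calls that were lost with upper-quartile scaling, with DESeq2, and without replicate 1 or 2 of CtrV or replicate 2 of EKO-labelled cells (adjusted p up to 0.157). Leaving out CtrV replicate 3 put the unpulsed value of Psmd10 at 0.21 (adjusted p = 0.0288). Psmd9, a further base chaperone, was at -0.13 ± 0.051 with OVA (adjusted p = 0.0618) and at -0.26 ± 0.051 without (adjusted p = 0.00182, and -0.21 with adjusted p = 0.00696 when CtrV replicate 3 was left out), and 25.5% of its exon bases are shared with a gene on the other strand.

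The chaperones of the alpha ring work in pairs, Psmg1 with Psmg2 and Psmg3 with Psmg4. Psmg1 had 23.2, 26.4 and 25.2 CPM in OVA-pulsed CtrV and 20.5, 22.7 and 20.6 CPM in OVA-pulsed EKO-labelled libraries. It was lower at -0.23 ± 0.064 with OVA (adjusted p = 0.0138) and -0.24 ± 0.065 without (adjusted p = 0.0107), and its partner Psmg2 was at -0.044 and -0.10, not called. On leaving out CtrV replicate 3 the unpulsed value of Psmg1 was -0.19 (adjusted p = 0.0493). Psmg4 had 11.2, 11.1 and 10.4 CPM and 14.4, 11.9 and 14.1 CPM with OVA and was called at 0.30 ± 0.10 (adjusted p = 0.0254), while Psmg3 was at 0.061. The calls with OVA were lost for Psmg1 without CtrV replicate 2 or EKO replicate 3 (adjusted p up to 0.0795), and for Psmg4 without CtrV replicate 3 or EKO replicate 1 or 3 (up to 0.129).

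No member was called for the OVA pulse itself. Comparing OVA-pulsed with unpulsed cells, 0 of 43 members were called in CtrV and 0 in EKO-labelled cells, as for all 14079 genes (0% called, with 231 and 394 genes, or 1.64% and 2.8%, at an unadjusted p under 0.05). For the dependence of the line difference on OVA, 0 members and 0 genes were called (0%), with 269 genes, or 1.91%, at an unadjusted p under 0.05. No member was among these in any of the 3 comparisons, and DESeq2, limma voom and the bias-adjusted edgeR fit also called 0 members, as did the fit without unpulsed CtrV replicate 3. Over the members the log2 fold changes of OVA against unpulsed ran from -0.11 to 0.11 in CtrV and from -0.080 to 0.050 in EKO-labelled cells. All cells had received LPS, so these values compare pulsed with unpulsed cells after stimulation.

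Summed over classes, the PA28 genes differed most between the lines. Psme1 and Psme2 together had 179 to 233 CPM in OVA-pulsed CtrV and 279.8 to 348 CPM in OVA-pulsed EKO-labelled libraries, a ratio of means of 1.58. The 7 alpha subunits had 888 to 915 CPM and 1049 to 1060.1 CPM (ratio 1.17), and the 7 chaperones 171 to 179 CPM and 198 to 206 CPM (ratio 1.15). Single genes made up much of these differences. Psma6 alone had means of 197 CPM in OVA-pulsed CtrV and 281 CPM in OVA-pulsed EKO-labelled cells, and Psmd5 alone 42.0 and 67.9 CPM. The 17 cap genes had 2545 to 2662 CPM and 2664 to 2752 CPM (ratio 1.05). These 4 sums did not overlap between the lines, that of the cap only narrowly. The 7 beta subunits had 946 to 1014 CPM and 979.8 to 999 CPM (ratio 1.01) and Psme3, Psme4 and Psmf1 together 318 to 325 CPM and 315 to 325 CPM (ratio 0.999), and both overlapped.

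In unpulsed cells the sums of PA28, of the chaperones and of the other activators were separate, and those of the alpha ring, the beta ring and the cap overlapped. CtrV replicate 3 set the upper end, with alpha sums of 874 to 1049 CPM in CtrV and 1044 to 1097 CPM in EKO-labelled libraries. Without it the CtrV alpha sums were 874 to 899 CPM and no class overlapped, the beta ring by a narrow margin, with 956 to 958 CPM in the remaining CtrV libraries and 959 to 1019 CPM in EKO-labelled ones. For the alpha ring, the beta ring and the cap this leaves out the highest CtrV sum, which by itself favours separate groups.

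Promoter sequence was described for the 36 members that matched an entry in the RefSeq promoter windows of GRCm38.p6, 250 bases before to 50 after a start, with 39 windows between them. Letters were searched on both strands of the 250 bases before the start only, in the windows of members and of all genes alike. The antioxidant response element core TGACNNNGC stood in 5 of the 39 windows (those of Psmb5, Psmb6, Psmc6, Psmd12 and Psmd9), 12.8%, against 10.2% of all 32851 windows. The core of the interferon-stimulated response element stood in 3 (Psmb3, Psmd4 and Psmd9), 7.69% against 2.98%, and the gamma-activated site core TTCNNNGAA in 1 (Psmg1), 2.56% against 7.02%. CCAAT stood in 12 windows, 30.8% against 33.8%. The 250 bases before the start are given for Psme2, whose level differed most between the lines, and for Psmb5, which was not called. The Psme2 stretch is chr14:55591102-55591351 and that of Psmb5 chr14:54617996-54618245, both on the minus strand, and capitals mark the one match to TGACNNNGC.
Psme2: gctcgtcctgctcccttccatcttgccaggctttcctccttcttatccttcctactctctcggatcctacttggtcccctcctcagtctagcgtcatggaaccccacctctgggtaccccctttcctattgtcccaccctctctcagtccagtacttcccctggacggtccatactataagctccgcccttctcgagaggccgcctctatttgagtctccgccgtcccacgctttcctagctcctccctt
Psmb5: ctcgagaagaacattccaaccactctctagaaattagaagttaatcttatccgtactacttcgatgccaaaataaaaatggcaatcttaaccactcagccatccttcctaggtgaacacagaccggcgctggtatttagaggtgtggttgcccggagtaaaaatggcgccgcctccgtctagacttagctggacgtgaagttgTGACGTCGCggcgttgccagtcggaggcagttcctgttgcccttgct
The 250 bases before the start of Psme2 held none of the 4 motifs, and neither did those of Psme1.

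Genes that serve the proteasome under other names were counted as a list of 26, of which 25 were found and tested. EKO-labelled cells had higher levels of 10 and lower levels of 2 with OVA, and of 9 and 2 without, or 48% and 44%, near the 47% and 46.4% of all genes. The median log2 fold change was 0.12 and 0.084. Without unpulsed CtrV replicate 3 the unpulsed counts were 7 and 2, the median was 0.093, and 42.1% of all genes were called. The largest values were those of Zfand5, a zinc finger protein that binds the proteasome and stimulates degradation (0.74 ± 0.12 with OVA, adjusted p = 0.000611), and Nfe2l2, the transcription factor of the oxidative stress response (0.59 ± 0.077, adjusted p = 0.000117). Nfe2l1, the factor that induces proteasome genes when degradation falls short, was at 0.46 ± 0.095 (adjusted p = 0.00251). Ngly1, the enzyme that removes glycans from Nfe2l1, was at 0.42 ± 0.050 (adjusted p = 6.06e-05). Without OVA the 4 genes were at 0.78, 0.48, 0.53 and 0.41, and without CtrV replicate 3 at 0.74, 0.50, 0.52 and 0.42. Pomp, the maturation factor of the beta rings, chosen here after its values were seen, was lower at -0.38 ± 0.067 with OVA and -0.35 ± 0.067 without (adjusted p = 0.000853 and 0.00158), the latter -0.26 without CtrV replicate 3 (adjusted p = 0.00402). Of like size with OVA were Tpp2, higher at 0.38 ± 0.045 (adjusted p = 6.19e-05), and Ubqln4, lower at -0.35 ± 0.056 (adjusted p = 0.000544).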

How the data were processed

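Messenger RNA of 12 samples was sequenced from a stranded library preparation. Per the submitters' processing notes and the methods, reads were aligned to mm10 with STAR, sorted with SAMtools and counted on the union of exons of Ensembl genes with featureCounts. For reads with up to 10 equally good places only 1 was reported, so counts of genes with near-identical copies depend on where such reads were placed. The authors deposited raw counts per gene in 1 table, without the normalization and filter that they describe, and both were applied here. Columns were matched to samples by the sample numbers in the titles, groups came from the labels, and 0 columns were left unused.

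Tests used edgeR 4.0.16 (R 4.3.3) with TMM scaling, a quasi-likelihood fit over all 12 libraries with group and replicate number as terms, and Benjamini-Hochberg adjustment over 14079 genes. A gene was called at an adjusted p under 0.05, since the methods leave their limits blank. CPM values are counts relative to the TMM-scaled total, and 3 counts correspond to 0.0785 to 0.11 CPM. Member counts lay between 293 and 12154 in single libraries. Symbols and positions came from GENCODE (GRCm38), not the annotation counted with. Copies were found with blastn. Ratios of subunits, with 1 count added to each gene, were tested by exact permutation of line labels within pulsing state, two-sided. The procedures were tested on simulated counts. In those made for the fits, every gene had the same setting of spread, few genes were changed and no replicate effect was added. These data differ in all of these points, so that test does not give the error rate here. Replicate numbers came from the labels. Deviations of same-numbered OVA-pulsed libraries of the lines correlated at 0.45, 0.30 and 0.30 across genes. Each value exceeded a chosen limit of 0.1, so these libraries were taken as paired by number. Libraries of different number were not compared in this way, so a shared culture or batch was not shown.

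The members, classes, lists and tests were chosen with earlier results of these data known. Values in single libraries are given for Psmb5, Psmb6, Psmb7, Psme1, Psme2 and for up to 3 members of each class with the largest absolute change among those called with OVA. For some of these members only the OVA-pulsed libraries are printed. Of the list of other proteasome genes, the 4 called with the largest change are named. Pomp, Tpp2 and Ubqln4 of that list were added after their values were seen. Alternatives were RLE and upper-quartile scaling, DESeq2 1.42.0, limma 3.58.1 voom, bias-adjusted deviances, other count filters, no replicate block, stricter thresholds, only the compared libraries and leaving out each library. Adding the counts of copies, leaving out both libraries of EKO replicate 1, and averaging ratios over same-numbered libraries were chosen after seeing the data. Protein data, cytokine measurements and mouse experiments of the study were not analysed here.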

Additional observations from a re-analysis of the deposited data

How the results depend on the processing

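No result changed direction while called. Of the 18 members called with OVA and the 16 without, an adjusted p under 0.01 left 10 and 7 (33.6% and 32.5% of all genes), and an absolute log2 fold change over 0.5 left 3 and 2 (20.8% and 20.1%). Fitting only the compared libraries gave 21 with OVA and 8 without (48% and 34.1% of all genes). Leaving out single libraries gave 10 to 16 with OVA (36.8% to 42.4% of all genes) and 9 to 21 without (38.3% to 43.3%). Without the replicate block the counts were 16 and 13 (38.4% and 37.9% of all genes). In unpulsed cells same-numbered libraries of the lines correlated at 0.066, -0.0091 and 0.27, so 1 of 3 was about as high as with OVA. Since not every value exceeded 0.1, pairing of these libraries by number was not shown. The main fit nevertheless held the replicate number as a term for all 12 libraries, the unpulsed ones included. The log2 ratios of Psmb8 to Psmb5, Psmb9 to Psmb6 and Psmb10 to Psmb7 were 0.74, 1.02 and -0.22 in OVA-pulsed libraries alone (exact permutation p = 0.1, 0.1 and 0.2) and 0.76, 1.06 and -0.18 in unpulsed libraries alone (p = 0.1 each), where 0.1 is the smallest p possible. With sign flips of the 6 same-numbered pairs as the replicate block, exact p was 0.0312 for each of the 3 ratios, the smallest that 64 arrangements could give. These flips included the unpulsed pairs and took both pulsing states as independent. Averaged over pulsing states, an alternative chosen after seeing the data, the 3 replicate numbers gave 0.75, 1.04 and -0.20 with an exact p = 0.25 each, the smallest possible. With the counts of copies added, 18 and 16 members were called (47% and 46.4% of all genes). Of the 36 called differences of members and Siglece in both states, 15 stayed called in all 17 refits at the same threshold, among them those of Psme2, Psmd5, Psma6, Psmc1 and Psmc3, and 21 were lost in at least 1. Of the 15, all were under an adjusted p of 0.01, and 5 exceeded a log2 fold change of 0.5 (Psme2 and Psmd5 in both states, Psma6 with OVA). Of the 52 that were not called, 13 were called in some alternative. The cause of these changes was not tested, and some fits also held fewer libraries. In the beta ring 13 of 14 differences (7 subunits in both states) lay within 2 standard errors of 0, all but that of Psmb7 with OVA.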
